A study of Mus musculus with 12 samples.

Results

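The comparison described here asked what antisense reduction of Rab5 changed in the open chromatin of neurons that had been exposed to α-synuclein fibrils. Of the 12 ATAC-seq libraries of the series, 6 entered it: 3 titled PFF + Rab5 ASO and 3 titled PFF. All 6 were primary cortical neurons of C57BL/6 mice taken at embryonic day 18, and all 6 had received preformed fibrils (PFFs) of human wild-type α-synuclein for 7 days. In the PFF + Rab5 ASO group, antisense oligonucleotides (ASOs) against Rab5a and Rab5b were added to the medium without a transfection reagent for the last 3 of those days. The study describes the cultures as almost free of glia, and the labels place every library in batch 1. The description label of the PFF + Rab5 ASO libraries names PBS where their title and treatment name PFF, and title and treatment were followed. None of the 12 libraries was labelled as a control oligonucleotide, so an effect of lower Rab5 and an effect of oligonucleotide exposure cannot be told apart. The study treated each pregnancy as 1 biological replicate and divided its cultures among the groups, and the labels do not say which pregnancy a replicate number stands for.

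Rab5 is the small GTPase that marks early endosomes: in its GTP-bound form it recruits tethers, a lipid kinase and motor adaptors, and it hands its cargo on to Rab7 on the way to the lysosome. In neurons it also serves the retrograde transport of signalling endosomes from the axon to the soma. LRRK2, a kinase linked to Parkinson's disease, phosphorylates a set of Rab GTPases, and fibrils of α-synuclein enter neurons through the endosomal pathway. ATAC-seq reads open chromatin through the places where a transposase can insert into DNA, and a peak caller turns dense insertions into intervals with a summit.

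Peaks of the 6 lists that shared 1 bp or more were joined, which gave 239918 regions. All 6 lists had a peak in 85498 of these (35.6%), and a single list in 67623 (28.2%). A region with a peak in 3 of 3 PFF + Rab5 ASO libraries and 0 of 3 PFF libraries is called gained below, and the reverse is called lost. For the 85498 shared regions, height was read as the percentile of fold enrichment over local background inside the library's own list, so that 90 means higher than 90% of that library's peaks. The effect is the difference between the group means of the rank turned into a normal score, in units of 1 SD of that score, positive where the PFF + Rab5 ASO libraries were higher.

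The peak lists differed between the groups in shape as well as content. The 3 PFF + Rab5 ASO lists held 171644 ± 11479 peaks (SD, n = 3) and the 3 PFF lists 163464 ± 10527, which overlapped (exact permutation test, two-sided, p = 0.5). Median peak width was 118 ± 6 bp against 138 ± 2.31 bp, median fold enrichment 4.92 ± 0.0733 against 5.37 ± 0.233, and mean GC content under the summits 50.3 ± 0.241% against 51.5 ± 0.414%. Relative depth, estimated from the background level of each list, was 1.22 ± 0.149 against 0.843 ± 0.0728. These 4 measures did not overlap between the groups (exact permutation p = 0.1 for each, the smallest that 3 against 3 libraries allow; 0.18 after adjustment over 9 measures). With the same number of top peaks taken from every list, median width did overlap, at 133 ± 11.4 bp against 147 ± 6.66 bp (exact permutation p = 0.2), and the other 3 did not. The part of depth, width and base composition in the results below was not tested unless a value is given beside them. No pair of libraries shared more than 0.0443% of its peak positions exactly. In width the PFF lists stood at one edge of the 4 groups, and the PFF + Rab5 ASO lists at the other, by group mean.

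**Figure D1:**
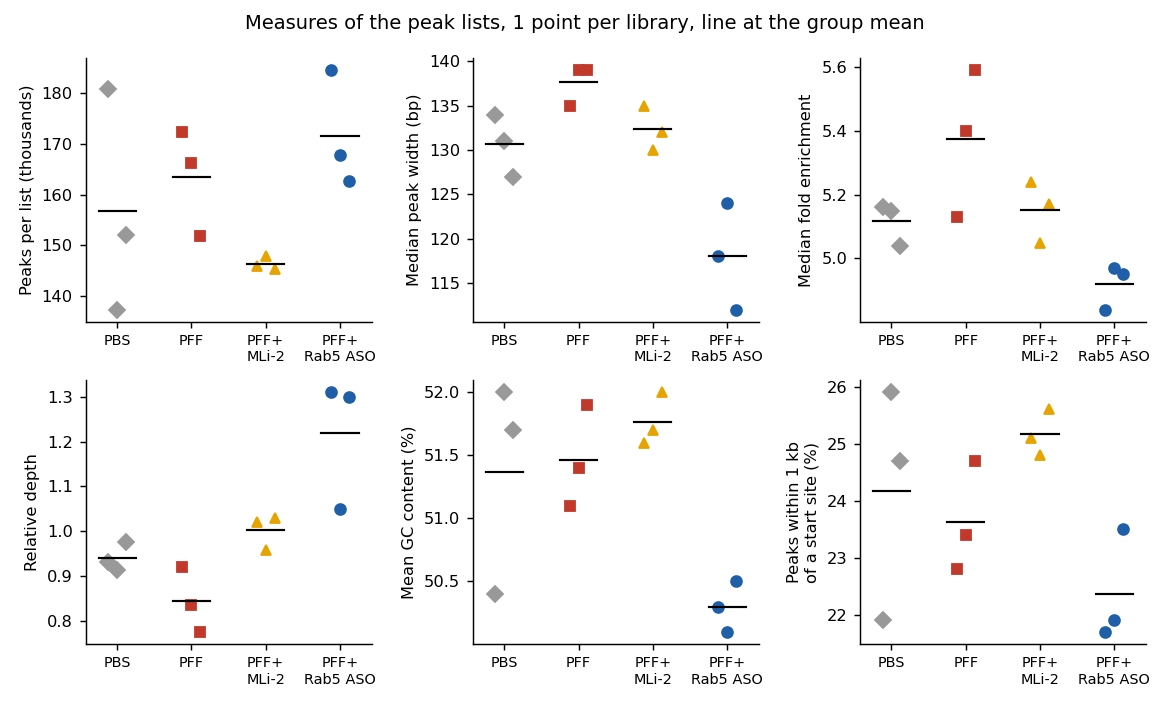
Measures of the peak lists for all 12 libraries, 1 point per library and a line at the group mean, with each vertical axis in the unit it names and not starting at 0. By group mean, the PFF + Rab5 ASO lists have the narrowest peaks (118 ± 6 bp), the lowest GC content (50.3 ± 0.241%) and the highest relative depth (1.22 ± 0.149) of the 4 groups.

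Sequences under changed regions are shown first. They were picked after their values and motifs were seen, mostly because they hold one of the motifs below, so they do not show how common a motif is among changed regions. Each window covers 100 bp on either side of the summit, shortened to its longest stretch outside annotated exons, on the plus strand of GRCm38. Capitals mark 4 motifs searched on both strands: the X-box (GTTNCNA followed directly by TGGNNAC), to which dimers of RFX transcription factors bind, its core GTTGCCA, the AP-1 site TGANTCA of Fos and Jun dimers, and the homeodomain core TAATTA. N is any base, and overlapping matches run together in capitals. Among all 239918 regions, 1.48% held the X-box, 5.53% the RFX core, 10.5% the AP-1 site and 7.83% the homeodomain core in a window of 201 bp. The first group are regions that were gained or ranked higher with Rab5 ASO. Of the 10 gained regions with the highest peaks, 4 held the X-box and 1 the AP-1 site, and of the 10 largest rises in rank, 5 held the RFX core and 1 the X-box.
Near n-R5s157, gained, chr7:116633318-116633518: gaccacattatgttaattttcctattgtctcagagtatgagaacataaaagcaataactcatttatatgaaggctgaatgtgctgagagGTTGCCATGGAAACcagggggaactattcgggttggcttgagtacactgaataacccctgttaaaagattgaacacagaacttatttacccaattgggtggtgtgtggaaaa
Near 2010007H06Rik, gained, chr9:51257056-51257256: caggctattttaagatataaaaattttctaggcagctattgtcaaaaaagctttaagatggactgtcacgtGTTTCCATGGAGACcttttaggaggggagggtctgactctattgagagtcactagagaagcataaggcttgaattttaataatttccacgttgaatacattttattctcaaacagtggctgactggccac
Cntnap2 intron, gained, chr6:46065648-46065848: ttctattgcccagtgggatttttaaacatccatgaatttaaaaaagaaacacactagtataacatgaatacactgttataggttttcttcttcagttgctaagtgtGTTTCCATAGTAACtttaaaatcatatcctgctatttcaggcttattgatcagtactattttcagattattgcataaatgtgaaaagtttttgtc
Near Osr1, gained, chr12:9590006-9590206: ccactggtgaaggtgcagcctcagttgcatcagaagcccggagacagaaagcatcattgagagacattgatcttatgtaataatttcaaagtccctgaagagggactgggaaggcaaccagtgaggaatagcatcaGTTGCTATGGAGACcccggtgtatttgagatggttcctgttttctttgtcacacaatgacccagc
Rab21 intron, gained, chr10:115293671-115293871: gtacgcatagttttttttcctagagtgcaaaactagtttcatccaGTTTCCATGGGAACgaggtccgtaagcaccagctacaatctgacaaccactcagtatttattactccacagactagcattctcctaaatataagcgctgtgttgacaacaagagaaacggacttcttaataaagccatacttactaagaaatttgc
Near Gm22312, higher, chr6:93488554-93488754: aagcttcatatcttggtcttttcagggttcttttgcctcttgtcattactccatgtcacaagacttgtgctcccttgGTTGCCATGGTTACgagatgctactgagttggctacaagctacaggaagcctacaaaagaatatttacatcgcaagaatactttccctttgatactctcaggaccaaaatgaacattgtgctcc
Near Olfr1330, higher, chr4:118902081-118902281: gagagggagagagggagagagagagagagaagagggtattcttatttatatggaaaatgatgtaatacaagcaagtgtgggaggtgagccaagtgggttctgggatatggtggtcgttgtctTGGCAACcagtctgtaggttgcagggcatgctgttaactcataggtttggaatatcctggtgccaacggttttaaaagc
Dlg2 intron, higher, chr7:92100934-92101134: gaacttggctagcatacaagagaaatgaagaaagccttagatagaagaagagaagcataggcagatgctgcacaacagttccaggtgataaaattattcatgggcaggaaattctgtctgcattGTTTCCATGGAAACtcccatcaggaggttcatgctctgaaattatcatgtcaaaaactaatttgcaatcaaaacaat
Elmo1 internal transcript start, higher, chr13:20282420-20282620: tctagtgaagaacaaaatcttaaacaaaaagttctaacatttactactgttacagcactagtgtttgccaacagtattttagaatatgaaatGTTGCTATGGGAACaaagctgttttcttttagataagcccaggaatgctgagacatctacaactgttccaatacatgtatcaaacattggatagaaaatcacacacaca
Lrrk2 internal transcript start, gained, chr15:91738976-91739117: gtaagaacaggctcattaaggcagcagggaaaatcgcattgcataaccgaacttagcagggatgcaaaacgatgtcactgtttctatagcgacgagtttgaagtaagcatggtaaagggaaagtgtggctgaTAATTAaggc

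The second group are regions that were lost or ranked lower with Rab5 ASO, again with the AP-1 site and the RFX core in capitals. Of the 10 lost regions with the highest peaks, 6 held the AP-1 site, 1 of them the RFX core as well, and 0 held the X-box. Of the 10 largest falls in rank, 5 held the AP-1 site and 0 the RFX core or the X-box.
Near Utrn, lost, chr10:12878683-12878883: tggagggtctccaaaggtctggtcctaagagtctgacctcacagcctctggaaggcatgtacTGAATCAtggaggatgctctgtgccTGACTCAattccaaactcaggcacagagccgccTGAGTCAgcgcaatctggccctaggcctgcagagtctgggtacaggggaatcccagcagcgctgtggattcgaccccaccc
Gzmn intron, lost, chr14:56168095-56168295: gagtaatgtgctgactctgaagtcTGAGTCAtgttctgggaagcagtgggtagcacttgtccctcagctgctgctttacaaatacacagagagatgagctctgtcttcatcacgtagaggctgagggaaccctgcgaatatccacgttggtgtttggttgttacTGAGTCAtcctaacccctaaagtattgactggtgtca
Near Gm7538, lost, chr5:119233063-119233263: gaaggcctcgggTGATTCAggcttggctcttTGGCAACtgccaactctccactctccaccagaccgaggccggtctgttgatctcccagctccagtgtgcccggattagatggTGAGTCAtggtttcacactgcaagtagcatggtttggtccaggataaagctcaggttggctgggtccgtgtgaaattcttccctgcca
Rac1 internal transcript start, lost, chr5:143518299-143518499: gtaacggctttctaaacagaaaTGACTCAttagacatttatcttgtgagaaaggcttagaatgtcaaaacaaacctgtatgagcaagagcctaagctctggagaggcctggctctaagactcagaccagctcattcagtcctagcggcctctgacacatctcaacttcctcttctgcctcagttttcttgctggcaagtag
Near Gm7328, lower, chr8:57013918-57014118: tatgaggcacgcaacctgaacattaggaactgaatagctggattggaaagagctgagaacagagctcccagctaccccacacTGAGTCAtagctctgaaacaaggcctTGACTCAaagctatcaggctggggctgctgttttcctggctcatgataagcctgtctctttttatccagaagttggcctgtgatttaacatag
Grm4 intron, lower, chr17:27500914-27501114: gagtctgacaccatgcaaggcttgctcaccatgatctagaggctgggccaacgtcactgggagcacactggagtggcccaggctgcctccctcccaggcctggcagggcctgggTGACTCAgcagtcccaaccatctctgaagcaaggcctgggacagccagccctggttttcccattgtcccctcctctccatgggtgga

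In all, 6162 regions were gained, 2.57% of the 239918, and 4523 were lost, 1.89%. They are counted with no test, since 3 against 3 libraries cannot go below an exact p of 0.1. The median percentile of the gained regions in the PFF + Rab5 ASO lists was 42.2 (quartiles 31.5 and 53.6), close to the 43.4 of all regions in those lists. That of the lost regions in the PFF lists was 35.3 (24.6 and 46.2), against 42.8 for all regions, and the regions that all 6 lists shared stood at 72.2 and 71.3. The larger side depended on PFF replicate 3, the library with the lowest estimated depth, since without it 7246 regions were gained and 8769 lost. Gained regions lay away from genes more often than lost ones. Of the gained regions 6.02% (95% Wilson interval 5.45 to 6.64) lay within 1 kb of a transcription start site and 47.7% (46.5 to 49) were intergenic, against 12% (11.1 to 13) and 32.7% (31.3 to 34.1) of the lost regions and 18.1% and 35.8% of all regions. These intervals cover counting error only, as do the others below. A distance of over 50 kb to the nearest start site was found for 24.9% of gained, 12.2% of lost and 14.9% of all regions.

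The other 6 libraries of the series, PBS and PFF with the LRRK2 inhibitor MLi-2 for the last 5 days, were not used to choose these regions. Of the 6162 gained regions, 56.4% had no peak in any PBS library and 71.3% none in any PFF + MLi-2 library, and 3008 (48.8%) had none in all 6. Of the 4523 lost regions, 20.7% had a peak in all 3 PBS libraries and 22.2% in all 3 PFF + MLi-2 libraries, and 533 (11.8%) were in none of the 6. PBS replicate 1, with the longest PBS list, held 34.9% of gained and 62.6% of lost regions, and the other 5 libraries held 10.3 to 15.5% of gained and 36.9 to 52.9% of lost regions. In each of the 6 libraries, lost regions were therefore found more often than gained ones.

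**Figure D2:**
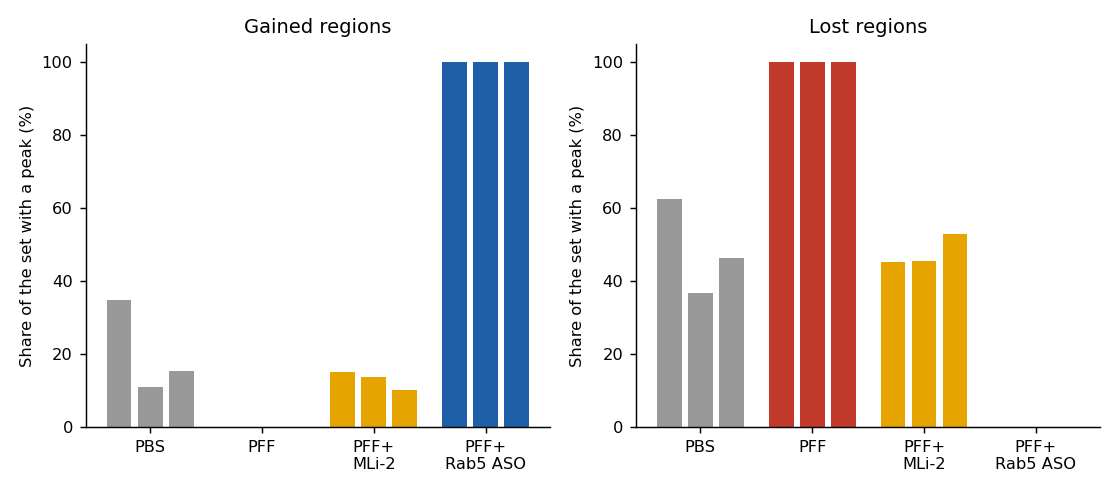
Share of the 6162 gained regions (left) and the 4523 lost regions (right) with a peak in each library, as bars from 0 to 100%, coloured by group with replicates 1 to 3 from left to right. The PFF and PFF + Rab5 ASO bars stand at 0 or 100% by definition, and the PBS and PFF + MLi-2 bars run from 10.3 to 34.9% on the left and from 36.9 to 62.6% on the right.

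The highest gained peaks were intergenic or intronic. The region near n-R5s157, chr7:116633248-116633502, whose X-box is printed above, stood at percentiles 93.0, 92.3 and 89.4 in PFF + Rab5 ASO replicates 1 to 3 and had no peak in the 3 PFF libraries. PBS replicates 1 and 2 held it at 39.7 and 40.5 and PFF + MLi-2 replicate 2 at 7.12. A region near Gm3942, chr10:112863913-112864170, reached 95.6, 84.5 and 94.5, with 1 peak among the other 9 libraries, at 29.3 in PBS replicate 1. The region near A630089N07Rik, chr16:98107175-98107477, reached 92.0, 88.2 and 91.1, with 1 peak elsewhere, at 48.4 in PFF + MLi-2 replicate 2. In each of these 3 regions the lowest PFF + Rab5 ASO library lay above every library of the other groups. Inside Cntnap2, a neurexin-family adhesion protein that clusters potassium channels, an intronic region at chr6:46065664-46065869 stood at 89.3, 82.3 and 86.2. It was present in PBS replicates 1 and 2 at 48.0 and 66.8 and in PFF + MLi-2 replicate 1 at 54.6. The region near 2010007H06Rik, chr9:51256902-51257317, stood at 93.0, 89.8 and 89.7, and that near Osr1, chr12:9590008-9590215, at 87.8, 86.5 and 86.2. An intronic region of St7l, chr3:104896113-104896469, stood at 79.3, 89.8 and 91.1.

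Several of the highest lost peaks were shared with the other groups. An intronic region of Wdr95, chr5:149567064-149567367, stood at 86.0, 76.3 and 82.5 in PFF replicates 1 to 3, at 63.6 to 84.5 in PBS and at 79.3 to 85.4 in PFF + MLi-2, and had no peak in the 3 PFF + Rab5 ASO libraries. An intronic region of Gzmn, chr14:56168053-56168321, with 2 AP-1 sites, stood at 76.9, 86.7 and 86.0 in PFF, at 29.9 to 76.0 in PBS and at 61.1 to 65.1 in PFF + MLi-2. Both were thus called in 9 of 9 libraries without the oligonucleotides. The region near Utrn, chr10:12878616-12878931, with 3 AP-1 sites, stood at 76.9, 77.4 and 87.3 in PFF, and was called in 1 of 3 PBS libraries at 60.4 and in 2 of 3 PFF + MLi-2 libraries at 54.6 and 49.8. The region near Gm7538, chr5:119233007-119233311, stood at 84.3, 84.8 and 72.2 in PFF with no peak in PBS. Other lost regions of this height lay in introns of Fam189a1 (79.7 ± 4.85 in PFF, SD, n = 3), Asap2, an Arf GTPase-activating protein (83.3 ± 7.02), and Pxk, a PX-domain protein of endosomal trafficking (78.6 ± 6.93), and each of these 3 had a peak in all 6 PBS and PFF + MLi-2 libraries.

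At promoters, taken as within 1 kb of the start of any annotated transcript, 371 regions were gained and 543 lost, 0.854% and 1.25% of 43443, beside 2.57% and 1.89% of all regions. Many of those named here lie at internal transcript starts, and their distance from the 5′ end of the whole gene model is given. A gained region 416 bp upstream of a transcript start of Adss, 27.5 kb inside the gene, which encodes adenylosuccinate synthase of purine synthesis, stood at 79.3, 66.1 and 79.0 in PFF + Rab5 ASO and had no peak in the other 9 libraries. The same held for a region 558 bp upstream of a transcript start 40.2 kb inside Tusc3, a subunit of the oligosaccharyltransferase complex, at 81.8, 79.8 and 57.6. At Hook1, a microtubule adaptor of endosomes, a region 49.8 kb inside the gene and 898 bp downstream of an internal transcript start stood at 69.7, 55.4 and 63.3, with single peaks at 8.14 in PBS replicate 1 and 49.8 in PFF + MLi-2 replicate 3. Each of the 3 genes had another region near a transcript start that was shared by all 6 lists, with a highest percentile of 98.4 for Adss, 95.3 for Tusc3 and 98.7 for Hook1. Among lost promoter regions, one 217 bp upstream of a transcript start 9.64 kb inside Rac1, a small GTPase of the actin cytoskeleton, stood at 63.4, 63.2 and 59.7 in PFF, with peaks at 29.3 in PBS replicate 1 and 17.8 in PFF + MLi-2 replicate 3. One 50.7 kb inside Agtpbp1, a carboxypeptidase that trims polyglutamate from tubulin, stood at 66.0, 74.3 and 43.4. One 67.1 kb inside Arhgap20, a GTPase-activating protein, stood at 55.6, 82.6 and 51.5, with no peak in the other 9 libraries, and another region near a transcript start of Arhgap20 was gained.

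Among the 85498 shared regions, 1359 (1.59%) ranked higher and 1175 (1.37%) lower with Rab5 ASO (limma, Benjamini-Hochberg adjusted p under 0.05). Their adjusted p ran from 0.0218 to 0.05. The calls nearest the threshold included an intronic region of Gucy1b2 (effect 1.15, adjusted p = 0.05), and just outside it lay a region near Ttc14 (effect 0.93, adjusted p = 0.0501). Every call lay close to the threshold, and none remained when any single library of the 6 was left out (14790 to 15967 regions at an unadjusted p under 0.05, smallest adjusted p 0.0525 to 0.0669). A fit with the replicate number as a block also called 0 regions (17742 at an unadjusted p under 0.05, smallest adjusted p 0.0505). With all 6 libraries, 17881 regions (20.9%) had an unadjusted p under 0.05, and in 22000 (25.7%) the scores of the groups did not overlap. The effect had an SD of 0.473 over all regions tested and ran from −2.37 to 2.41. Regions ranked higher had a median percentile of 80.4 in PFF + Rab5 ASO and 42.7 in PFF, and regions ranked lower 42.9 and 79.7.

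Several of the largest rises were peaks that stood in the lower part of the PFF lists. The intergenic region near Olfr1330, chr4:118902059-118902306, with the RFX core printed above, stood at 18.5, 32.2 and 22.6 in PFF and at 94.0, 93.4 and 84.1 in PFF + Rab5 ASO (effect 2.41 ± 0.233 SE, adjusted p = 0.0222). The region near Gm45786, chr8:93740345-93740592, 69550 bp from the start of Gnao1, stood at 30, 32.2 and 33.6 and at 94.4, 92.3 and 93.5 (effect 2.39 ± 0.188, adjusted p = 0.0218). In Zdhhc18, a palmitoyltransferase, an intronic region at chr4:133619539-133619823 rose from 24.4, 6.8 and 4.24 to 78.4, 87.8 and 80 (effect 2.38 ± 0.257). In none of these 3 did the groups overlap, which was a condition for naming them. PBS libraries with the peak stood between 17.9 and 72.9. The rises in Dlg2, Dnm3, Dlgap2 and Kcnh1 that follow were named from their gene lists. They were smaller than others not described here, such as 1 in Hs3st4 (effect 2.28). In Dlg2, which encodes the synaptic scaffold PSD-93, an intronic region at chr7:92100883-92101146 with an X-box rose from 13.3, 16.4 and 14.3 to 82.5, 81.8 and 77.0 (effect 2.07 ± 0.184, adjusted p = 0.0218). In Dnm3, a dynamin of synapses, an intronic region at chr1:162187301-162187627 rose from 57.4, 26.6 and 13.7 to 91.4, 88.2 and 88.1 (effect 2.07 ± 0.283). A second intronic region of Dnm3 was gained, at 81.8, 66.1 and 78.4 with no peak elsewhere, and another fell from 80.4, 86.7 and 83.9 to 29.1, 55.4 and 57.6 (effect −1.36 ± 0.276). Dlgap2, a postsynaptic scaffold, held an intronic X-box region at chr8:14641965-14642145 that rose from 34.3, 53.1 and 19.1 to 90.3, 85.4 and 87.2 (effect 1.88 ± 0.241). Kcnh1, a voltage-gated potassium channel, held an intronic region with the RFX core that rose from 23.7, 14.8 and 5.35 to 62.6, 75.8 and 74.2 (effect 1.74 ± 0.253).

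The largest falls were intergenic, near Fam240a (effect −2.37, limma adjusted p = 0.0218) and near Gucy2g (effect −2.16, adjusted p = 0.0222). The falls described below do not follow the order of size, and those in Tgfb2 and Gria1 were named from their gene lists. In Grm4, a presynaptic metabotropic glutamate receptor, the intronic region at chr17:27500918-27501132 with the AP-1 site printed above fell from 60.1, 76.5 and 65.4 in PFF to 14.6, 1.45 and 4.19 (effect −2.03 ± 0.26, adjusted p = 0.0222). The region near Gm7328, chr8:57013754-57014138, with 2 AP-1 sites, fell from 84.3, 86.7 and 87.9 to 65.6, 6.62 and 9.37 (effect −2.11 ± 0.398, adjusted p = 0.0331). In it PFF + Rab5 ASO replicate 1 stood far above replicates 2 and 3, and the PBS and PFF + MLi-2 libraries stood at 90.1 to 94.9. In Ptprb, a receptor tyrosine phosphatase, an intronic region at chr10:116291279-116291797 fell from 89.4, 75 and 86.6 to 48.0, 16.2 and 9.37 (effect −2.06 ± 0.298). In Tgfb2, a TGF-beta ligand, an intronic AP-1 region at chr1:186627618-186627896 fell from 91.0, 86.7 and 96.1 to 65.6, 55.4 and 31.0 (effect −1.76 ± 0.286). Gria1, an AMPA receptor subunit, held an intronic region at chr11:57062518-57062820 that fell from 74.7, 79.0 and 90.4 to 44.1, 11.3 and 38.6 (effect −1.72 ± 0.311). In each of these regions the groups did not overlap, which was a condition for naming them. In Synpo, a spine-associated actin-binding protein, an intronic region fell from 58.2, 76.2 and 76.7 to 11.4, 9.62 and 1.88 (effect −2.08 ± 0.278), and PBS stood at 6.17 to 36.2.

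Of 23284 promoter regions in the same sense with a peak in all 6 libraries, 144 (0.618%) were higher in rank and 112 (0.481%) lower, beside 1.59% and 1.37% of all shared regions; the difference was not tested. A region at the start of 1700111E14Rik rose with an effect of 2.26 (limma adjusted p = 0.0287). Among promoters of protein-coding genes the largest rise was at Gpr85, an orphan receptor of neurons. There a region 1.8 kb inside the gene that overlaps an untranslated exon, chr6:13838015-13838362, stood at 4.45, 4.35 and 1.4 in PFF and at 61.9, 68.2 and 65.3 in PFF + Rab5 ASO (effect 2.12 ± 0.206, adjusted p = 0.0222). PBS and PFF + MLi-2 held it at 6.87 to 35.8 and 13.3 to 32.2. At Elmo1, which with Dock proteins activates Rac1, a region with an X-box, 397 bp upstream of a transcript start 192 kb inside the gene, rose from 30, 42.0 and 43.4 to 86.0, 89.8 and 75.9 (effect 1.61 ± 0.241, adjusted p = 0.0225). Of the 8 largest rises at promoters of protein-coding genes, 3 held the X-box. A region 751 kb inside Mdga2, which limits neuroligin at synapses, rose from 48.8, 56.6 and 43.4 to 90.7, 95.1 and 81.7 (effect 1.64 ± 0.251), and one 48.4 kb inside Nuak1, an AMPK-related kinase of axon branching, from 4.2, 25.4 and 8.25 to 75.4, 58.3 and 60.4 (effect 1.63 ± 0.262), while another of the 4 Nuak1 promoter regions ranked lower. Among falls, a region 51.9 kb inside Btbd9, a BTB-domain protein, went from 88.8, 73.7 and 74.7 to 34.9, 23.3 and 10.7 (effect −1.87 ± 0.254, adjusted p = 0.0222). A region 15 kb inside Grin1, the obligate subunit of NMDA receptors, and 428 bp upstream of an internal transcript start, went from 75.2, 69.6 and 77.4 to 42.0, 4.98 and 25.9 (effect −1.61 ± 0.28, adjusted p = 0.0292). A region 224 kb inside Gramd1b, a sterol transfer protein, went from 80.5, 85.7 and 90.2 to 35.9, 64.2 and 23.9 (effect −1.61 ± 0.306, adjusted p = 0.0335). Grin1 had 3 further promoter regions and Gramd1b 10 further ones in all 6 libraries that were not called in either direction. Of the 8 largest falls at promoters of protein-coding genes, 0 held the AP-1 site.

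**Figure D3:**
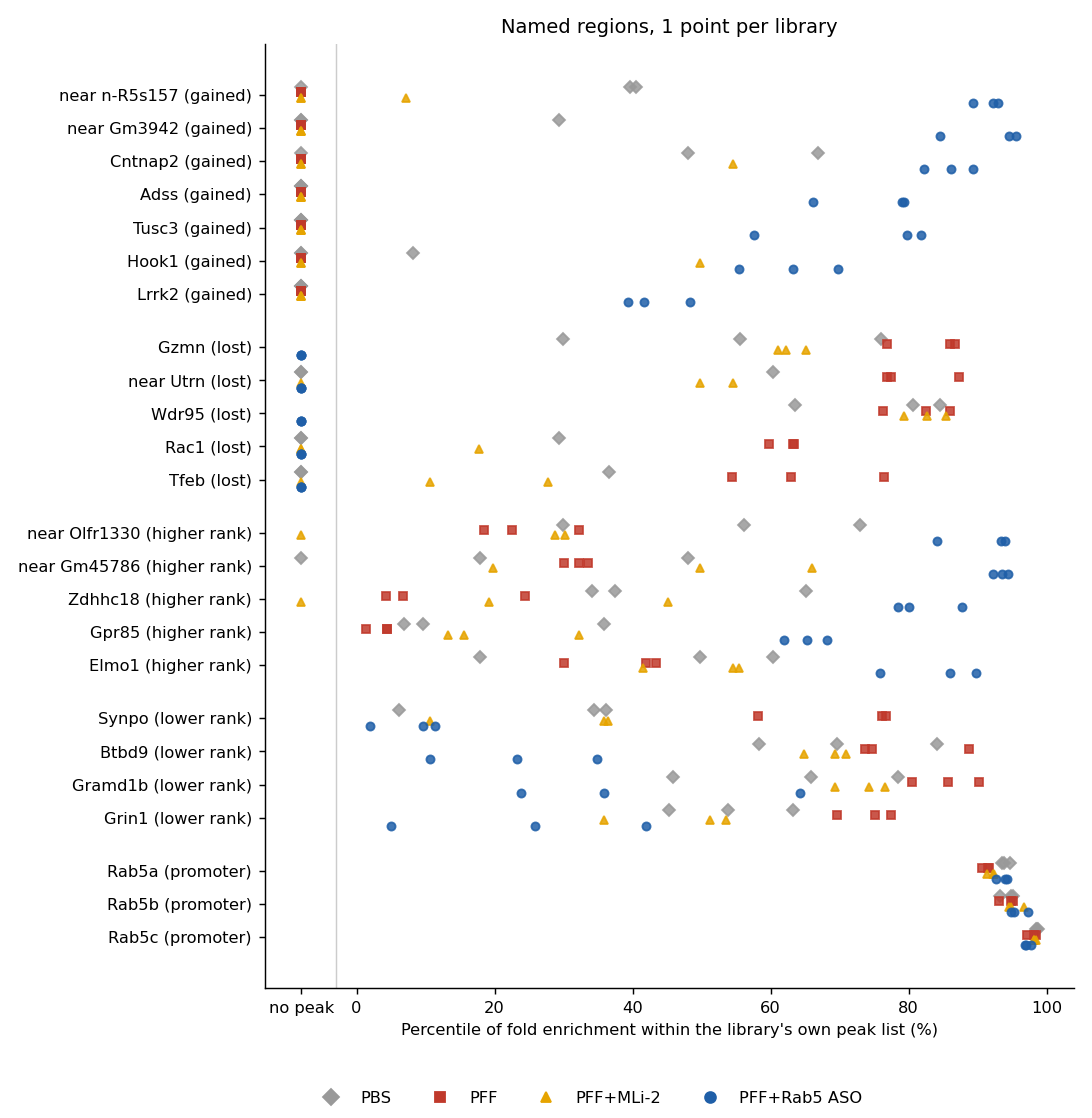
Percentile of fold enrichment within each library's own list (horizontal axis, 0 to 100%, with "no peak" set apart at the left) for 24 named regions, 1 point per library and 1 symbol per group. In the 5 regions with a higher rank the PFF + Rab5 ASO points lie right of every PFF point, and in the 4 with a lower rank they lie left of them, which was a condition for naming them. The 3 Rab5 promoters stand above 90 in all 12 libraries.

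Base composition followed the direction of change. In windows below 35% GC, 10.9% of regions were gained and 0.466% lost, and between 50 and 55% GC 0.997% were gained and 2.59% lost. Ranks showed the same split, with 7.26% higher and 0.427% lower below 35% GC and 0.796% higher and 2.12% lower between 50 and 55% GC. Medians over regions with a peak in all 12 libraries, here and below, use percentiles ranked again among those 72942 regions. They are not on the scale of the within-list percentiles above. Over the 776 regions below 35% GC that had a peak in all 12 libraries, the median percentile was 45.7, 46.2 and 50.6 in PFF + Rab5 ASO and 35.7, 32.3 and 32.5 in PFF. PBS stood at 31.1 to 38 and PFF + MLi-2 at 30.3 to 37.9, so that each PFF + Rab5 ASO library stood above every other library. With the same 151801 top peaks taken from every list, 10.6% of regions below 35% GC were gained and 0.506% lost. When the scores of each library were corrected for GC content and width, 1.62% were higher and 1.45% lower in that bin, and 790 regions were higher and 716 lower in all. GC content and treatment moved together across these 6 libraries and cannot be told apart.

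**Figure D4:**
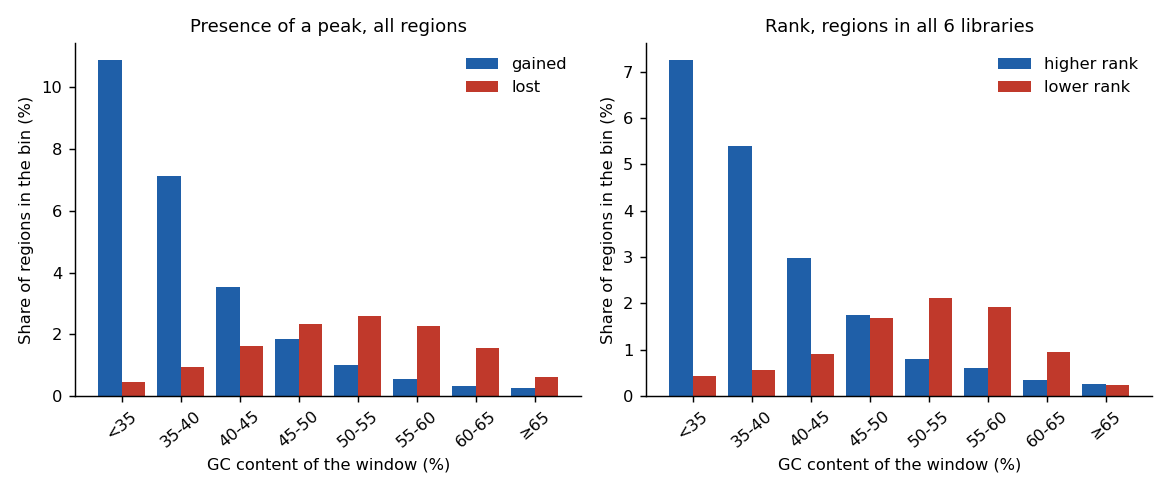
Share of regions gained and lost (left, of all 239918 regions) and higher and lower in rank (right, of the 85498 in all 6 libraries) by GC content of the window in bins of 5 points, as bars from 0. Gained regions fall from 10.9% of the lowest bin to 0.257% of the highest, and lost regions peak at 2.59% between 50 and 55% GC.

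The RFX motif followed the rises and the AP-1 site the falls. The X-box was added to the 21 motifs searched after the windows of the named regions had been read, so its counts are also given without those regions. Of the 3559 regions with an X-box, 364 (10.2%) were gained and 1 (0.0281%) was lost, against 2.45% and 1.91% of regions without it. Of the 1697 shared by all 6 lists, 187 (11%) ranked higher and 0 lower by the limma test, against 1.4% and 1.4%, and the median effect was 0.40 higher with the X-box than without. In single libraries, the median score of X-box regions less that of the rest was −0.03, 0.01 and −0.02 in PFF and 0.49, 0.46 and 0.52 in PFF + Rab5 ASO. Without the named regions, the X-box was in 5.85% of gained, 0.0224% of lost, 13.6% of higher and 1.48% of all regions. By location, 12% of X-box regions were promoters, 41.1% intronic and 41.6% intergenic. The gained share was above that of other regions in 7 of 8 GC bins, the exception being the 48 X-box regions at 65% GC or more, of which 0 were gained. Between 50 and 55% GC, 6.23% of X-box regions and 0.926% of others were gained. With the GC and width correction, 7.9% against 0.783% ranked higher over all GC contents. The difference of median effects ran from 0.39 to 0.43 over the other rank fits, and was 0.30 in units of log2 pileup. Among the 1406 X-box regions that every one of the 12 lists held, the median percentile was 69.0, 68.9 and 70.2 in PFF + Rab5 ASO, 50.1, 51.5 and 49.8 in PFF, 52.3 to 54.2 in PBS and 52.6 to 55.2 in PFF + MLi-2.

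The RFX core alone gave the same direction in weaker form. Of the 13259 regions with it, 4.8% were gained and 1.06% lost, against 2.44% and 1.93% without it, and 4.2% ranked higher and 0.684% lower, against 1.41% and 1.42%. The gained share was above that of other regions in 8 of 8 GC bins and the lost share in 0. For the AP-1 site the order turned: 4.38% of 25147 regions were lost and 1.82% gained, against 1.59% and 2.66% without it, and 3.86% ranked lower and 1.21% higher, against 1.13% and 1.63%. The lost and the lower shares were above those of other regions in 8 of 8 GC bins. AP-1 regions with a peak in all 12 libraries had a median percentile of 43.3, 40.6 and 43.0 in PFF + Rab5 ASO and 50, 48.9 and 49.7 in PFF. PBS stood at 45.1 to 47.9 and PFF + MLi-2 at 43.4 to 50.8, so that the PFF + Rab5 ASO libraries lay below all others, narrowly so beside PFF + MLi-2 replicate 2. The neuronal E-box CAGATG of bHLH factors such as Neurod proteins also went with loss, in 2.62% against 1.68% of regions, again in 8 of 8 GC bins. The median effect of regions with CAGATG less that of the rest was −0.09 in score units, and −0.01 in units of log2 summit pileup. The homeodomain core TAATTA went with gain (5.69% against 2.3%) in 5 of 7 GC bins with at least 100 such regions. The CACGTG element read by TFEB, a regulator of lysosomal genes, was in 119 gained and 196 lost regions, 1.37% and 2.26% of those with it against 2.61% and 1.87% without. Over regions with a peak in all 12 libraries, its median percentile was 59.2 ± 0.282 with Rab5 ASO and 59.8 ± 0.2 in PFF. The longer element with a T before and an A after these letters was in 588 regions, of which 6 were gained (1.02%) and 8 lost (1.36%), against 2.57% and 1.89% without it. In the 321 of them that every list held, its median percentile went the other way, at 80.8, 81.4 and 81.7 with Rab5 ASO and 76.2, 75.8 and 76.8 in PFF, with PBS at 75.1 to 79.1 and PFF + MLi-2 at 76.3 to 78.5. Of the 21 motifs, 13 had medians that did not overlap between the groups, 8 higher and 5 lower with Rab5 ASO. The 13 include CACGTG, with the near values of 59.2 and 59.8. The same held for 5 of 8 GC bins, and 25.7% of single shared regions had scores that did not overlap. A match is a string of letters in a window and not a measured binding site.

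**Figure D5:**
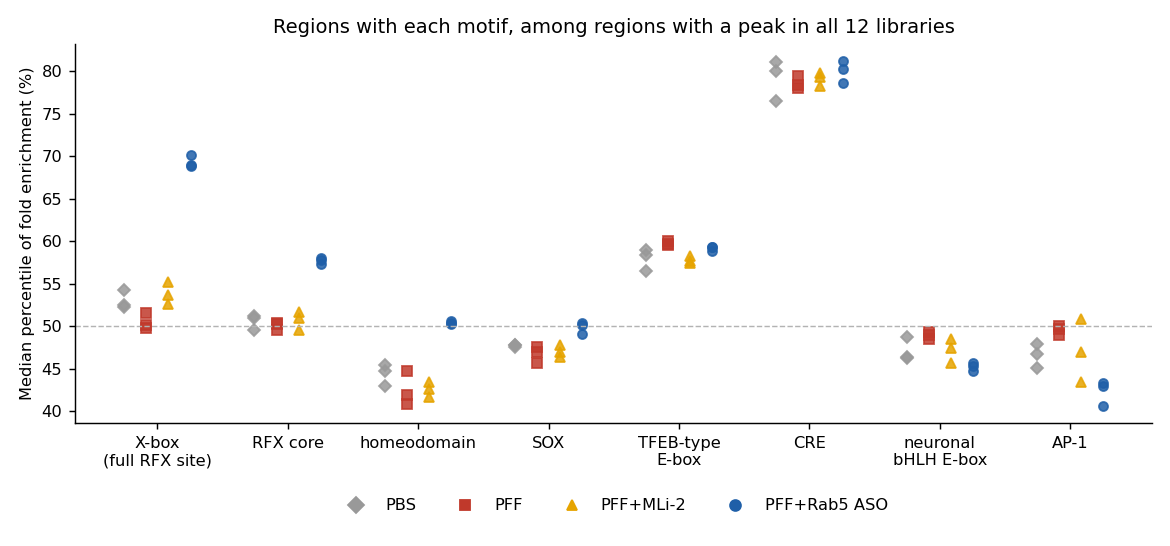
Median percentile of fold enrichment of the regions holding each of 8 motifs, among 72942 regions with a peak in all 12 libraries, 1 point per library with the median of all regions dashed at 50 and a vertical axis that does not start at 0. X-box regions stand at 68.9 to 70.2 in the PFF + Rab5 ASO libraries and at 49.8 to 55.2 in the other 9, and AP-1 regions at 40.6 to 43.3 against 43.4 to 50.8.

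The targeted genes showed open promoters in every library. At Rab5a, chr17:53478666-53479845, the promoter peak stood at 91.7, 91.5 and 90.7 in PFF and 92.6, 94.0 and 94.2 in PFF + Rab5 ASO (effect 0.16 ± 0.185, limma adjusted p = 0.669). At Rab5b, chr10:128695774-128696858, it stood at 94.9, 93.1 and 95.1 and at 95.3, 94.8 and 97.3 (effect 0.15 ± 0.2, adjusted p = 0.737). At Rab5c, which the oligonucleotides were not aimed at, chr11:100737905-100738694, it stood at 98.5, 97.1 and 98.2 and at 96.8, 97.0 and 97.7 (effect −0.19 ± 0.194, adjusted p = 0.625). No region in the 3 genes was gained, lost or called in rank. An antisense oligonucleotide acts on RNA, and these promoter peaks do not check whether the RNA fell.

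Early endosome genes had shares of gained and lost regions near those of all genes. The 41 annotated genes of the Rab5 and early endosome list held 399 regions, of which 7 (1.75%) were gained and 10 (2.51%) lost, beside 2.09% and 1.98% of all 153983 regions linked to a gene. Of its 149 regions in all 6 libraries, 1 (0.671%) was higher and 0 lower, beside 1.32% and 1.26% of all linked regions. That region lies in an intron of Vps8, a subunit of the CORVET tether that Rab5 recruits, and stood at 53.4, 44.1 and 37.3 in PFF and 78.4, 71.7 and 79.0 in PFF + Rab5 ASO (effect 1.06 ± 0.2, adjusted p = 0.0335). Vps8 also had 3 lost regions, among them an intronic one at 66.0, 32.2 and 63.5 in PFF. Gapvd1, an exchange factor for Rab5, lost an intronic region (61.3, 50 and 43.4 in PFF), and Rab21, a close relative of Rab5, gained one with an X-box (76.4, 66.1 and 50.4). Eea1 and Appl1, the classic effectors, had 6 and 2 regions with none gained, lost or called in rank.

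The kinase upstream of the Rab GTPases carried a gained region. At Lrrk2, a region 65.8 kb inside the gene and 69 bp downstream of an internal transcript start, chr15:91738969-91739081, which overlaps coding sequence, stood at 39.4, 48.3 and 41.7 in PFF + Rab5 ASO and had no peak in the other 9 libraries. Of the 5 Lrrk2 regions near a transcript start, 2 had a peak in all 6 libraries, the highest at 99.2. In Ppm1h, the phosphatase that reverses LRRK2 phosphorylation of Rab proteins, an intronic AP-1 region at chr10:122718161-122718389 fell from 68.3, 64.3 and 41.0 to 1.3, 4.32 and 2.63 (effect −1.97 ± 0.25, adjusted p = 0.0222). PBS and PFF + MLi-2 held it at 23.2 to 58.6 and 26.3 to 45. In Rab10, a main LRRK2 substrate, an untranslated exon region where Rab10os overlaps fell from 61.3, 74.3 and 63.5 to 29.1, 28.3 and 31.0 (effect −1.11 ± 0.211, adjusted p = 0.0335), with PBS at 71.9 to 80.4 and PFF + MLi-2 at 66 to 81.6. Over the list of 19 annotated LRRK2 and Rab substrate genes, 2 regions (0.909%) were gained and 5 (2.27%) lost of 220, and 2 (2.3%) were higher and 3 (3.45%) lower of 87. Beside them stand 2.09% gained, 1.98% lost, 1.32% higher and 1.26% lower over all linked regions, and with regions assigned to the nearest start site the list had 4 gained and 4 lost.

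Lysosomal and autophagy lists are read against the 2.09% gained and 1.98% lost of all linked regions. Lysosomal enzymes and membrane proteins had 1 gained (0.68%) and 3 lost (2.04%) of 147 regions, and the V-ATPase that acidifies lysosomes 1 (1.1%) and 3 (3.3%) of 91. The autophagy machinery had 5 gained (1.66%) and 6 lost (1.99%) of 302, and retromer, sorting nexin and ESCRT genes 1 (0.535%) and 2 (1.07%) of 187. Assigned to the nearest start site, the autophagy machinery had 8 gained and 5 lost. By rank, 1 of 70, 0 of 40, 1 of 122 and 1 of 88 regions of these lists were higher and 1, in the autophagy list, lower, beside 1.32% higher and 1.26% lower of all linked regions. Median percentiles over promoter regions with a peak in all 12 libraries were higher with Rab5 ASO and did not overlap for lysosomal genes (84.6 ± 0.964 against 81.3 ± 1.12), the V-ATPase (86.3 ± 1.07 against 81 ± 1.51) and retromer, sorting nexin and ESCRT genes (90.7 ± 1.4 against 86.2 ± 1.96). For the autophagy machinery they overlapped (80.3 ± 2.4 against 78.7 ± 1.01), as they did over all such promoter regions (65.2 ± 1.76 against 63.1 ± 1.02). Over all regions of these lists with a peak in all 12 libraries, each outcome turned. Medians overlapped for lysosomal genes (77.1 ± 1.28 against 74.4 ± 1.84), the V-ATPase (69.2 ± 5.86 against 64.6 ± 7.52) and retromer, sorting nexin and ESCRT genes (65.5 ± 3.95 against 63.7 ± 2.67). For the autophagy machinery they did not (56.1 ± 1.99 against 51.9 ± 1.6). Of 25 gene lists, 7 had promoter medians that did not overlap, all 7 higher with Rab5 ASO. They included projection neuron identity (46 ± 3.54 against 37.5 ± 6.92), neural progenitor (29.8 ± 2.4 against 25.6 ± 2.34) and unfolded protein genes (77.5 ± 2.45 against 71.2 ± 2.77). Genes of DNA damage, cell death and senescence were also among them (57.9 ± 1.57 against 52.4 ± 2.45). Of single shared regions, 25.7% had scores that did not overlap between the groups. At Tfeb, which drives lysosomal genes, a region 46.7 kb inside the gene and 899 bp from an internal transcript start was lost, at 62.9, 76.4 and 54.4 in PFF, with peaks in 1 PBS library at 36.6 and 2 PFF + MLi-2 libraries at 10.7 and 27.7. Tfeb had 3 other regions near a transcript start in all 6 libraries. At Atp6v1e1, a V-ATPase subunit, a region near a transcript start 20.6 kb inside the gene was lost, at 33.6, 37.3 and 55.2 in PFF.

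Synaptic lists held more gained than lost regions when regions were assigned by gene body, beside 2.09% gained and 1.98% lost over all linked regions. Synaptic adhesion genes gained 88 (3.93%) and lost 21 (0.938%) of 2239 regions, voltage-gated channels 55 (3.56%) and 21 (1.36%) of 1544, and presynaptic release genes 31 (3.71%) and 19 (2.27%) of 836. Glutamate receptors and scaffolds gained 43 (2.52%) and lost 25 (1.47%) of 1706. Of all intronic regions 2.65% were gained and 2.27% lost. By rank, synaptic adhesion genes had 13 higher (2.11%) and 11 lower (1.79%) of 616, glutamate receptors and scaffolds 13 (2.41%) and 11 (2.04%) of 540, voltage-gated channels 12 (2.55%) and 9 (1.91%) of 470, and presynaptic release genes 6 (2.14%) and 1 (0.356%) of 281, beside 1.32% and 1.26% of all linked regions. Assigned to the nearest start site instead, the excess was small in 3 of these lists: presynaptic release genes had 19 gained and 18 lost regions, glutamate receptors and scaffolds 19 and 18, and voltage-gated channels 27 (2.46%) and 21 (1.91%). Synaptic adhesion genes had 34 (3.22%) and 9 (0.853%), beside 1.84% and 2.03% of all regions assigned in that way. Cntn1, an axonal adhesion protein, held the exonic region chr15:92302940-92303275 that rose from 18.5, 62.1 and 33.6 to 92.0, 95.1 and 84.1 (effect 2.01 ± 0.332). In Erc2, an active zone scaffold, 1 intronic X-box region rose from 36.3, 72.7 and 36.9 to 82.3, 92.0 and 92.6 (effect 1.57 ± 0.34, adjusted p = 0.0453), while another was lost, at 62.5, 60.8 and 64.8 in PFF.

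The genes with most gained and most lost regions are read against 2.09% gained and 1.98% lost of all linked regions. Of 16910 protein-coding genes with a region, 1837 had a gained and 2147 a lost region, and 640 had both. Rbfox1, a neuronal splicing factor, had 15 gained (8.38%) and 2 lost (1.12%) of 179 regions. Ntm, a cell adhesion protein of the IgLON family, had 13 (7.3%) and 2 (1.12%) of 178, Prkg1, a cGMP-dependent kinase, 11 (9.73%) and 2 (1.77%) of 113, and Tenm2, a teneurin, 10 (5.52%) and 1 (0.552%) of 181. Csmd1 had 10 (5.08%) and 3 (1.52%) of 197, and Pde4d, a cAMP phosphodiesterase, 9 (6.21%) and 2 (1.38%) of 145. On the other side, Arhgap26, a GTPase-activating protein, had 1 gained (0.741%) and 10 lost (7.41%) of 135 regions, Phactr1, an actin and phosphatase regulator, 1 (0.952%) and 7 (6.67%) of 105, and Snx29, a sorting nexin, 0 and 6 (6.82%) of 88. Rasgef1b, a Ras exchange factor, had 5 (5.68%) and 6 (6.82%) of 88. Gm20388 (27 lost of 925, 2.92%) and Fgfr2 (8 of 489, 1.64%) were also among the 6 genes with most lost regions, but their gene models span 4434.9 and 2960.9 kb and cover many other genes.

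The lists on stress and immunity were small, and are read against 2.09% gained, 1.98% lost, 1.32% higher and 1.26% lower over all linked regions. Activity-dependent immediate early genes had 1 gained (0.725%) and 2 lost (1.45%) of 138 regions, both losses lying near transcript starts of Dusp1 and Gadd45b and standing at or below 3.85 in PFF. By nearest start site the list had 7 gained (1.96%) and 6 lost (1.68%) of 357, beside 1.84% and 2.03% of all regions. Heat shock chaperones had 2 gained (2.53%) and 0 lost of 79, which turned to 1 gained and 4 lost of 158 by nearest start site. Unfolded protein and integrated stress genes had 2 (1.56%) and 1 (0.781%) of 128. Interferon and nucleic acid sensing genes had 1 gained (0.529%) and 5 lost (2.65%) of 189 and 0 higher and 2 lower (2.44%) of 82. Genes of DNA damage, cell death and senescence had 7 gained (2.67%) and 1 lost (0.382%) of 262. Of the 114 regions of that list shared by all 6 libraries 1 (0.877%) was higher and 3 (2.63%) lower. The higher one, near a transcript start 133 kb inside the long gene model of Hmgb1, a chromatin protein released from senescent cells, rose in rank from 44.2, 59.7 and 29.8 to 80.9, 78.8 and 85.5 (effect 1.29 ± 0.239, adjusted p = 0.0318). Genes of RNA decay and oligonucleotide action had 3 gained (1.6%) and 4 lost (2.14%) of 187, which turned to 5 (2.15%) and 4 (1.72%) of 233 by nearest start site, and 1 higher (1.32%) and 2 lower (2.63%) of 76. The higher one, in an intron of Ago2, the slicer of RNA interference, rose from 21.1, 23.9 and 15.6 to 72.1, 59.3 and 60.4 (effect 1.28 ± 0.194).

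Promoters of neuronal markers were open, and so were those of several glial and vascular markers. All 9 projection neuron markers and all 4 interneuron markers had a promoter peak in all 6 libraries, and so did the 4 astrocyte markers. Of 4 microglial markers, Cx3cr1 and Aif1 had no promoter peak in any of the 6, 0 had one in all 3 PFF + Rab5 ASO libraries and 1, Csf1r, in all 3 PFF libraries (18.5, 42.0 and 63.5, against 8.69, 16.2 and no peak with Rab5 ASO). Of the oligodendrocyte lineage, Olig1 (87.2 to 93.6), Olig2 (54.8 to 79.8) and Pdgfra (73.5 to 83.8) had a promoter peak in all 6, Sox10 in 3 PFF libraries and 1 PFF + Rab5 ASO library, and Mog in 0. Of endothelial and mural markers, Kdr (63.2 to 80) and Pdgfrb (37.3 to 77.6) had one in all 6, Cldn5 in 1 PFF library and Pecam1 in 0. An open promoter in bulk cells does not show how many cells of a type there were. The whole list of glial, microglial and endothelial genes had 2 gained (0.722%) and 7 lost (2.53%) of 277 regions, beside 2.09% and 1.98% of all linked regions, and 2 higher (1.92%) and 1 lower (0.962%) of 104. Of the lost regions, 3 were among the 32 in the 168.3 kb gene model of Cx3cr1, 2 in Aldh1l1, 1 in Mbp and 1 the only region of Tmem119, while Csf1r, P2ry12, Itgam and Ptprc had 0 gained or lost. One of those of Cx3cr1, intronic, stood at 45.5, 25.7 and 36.2 in PFF, and was present in all 6 PBS and PFF + MLi-2 libraries. Of the marker promoter regions, 44 of projection neurons, 20 of interneurons, 15 of astrocytes, 14 of the oligodendrocyte lineage, 2 of microglia and 3 of endothelium and mural cells, 0 were gained, 1 was lost (Aldh1l1) and 0 were called in rank by limma, where 0.854% of all promoter regions were gained and 1.25% lost. In bulk libraries fewer cells of a type and less open chromatin per cell cannot be told apart, and the part of glial cells in these results was not tested.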

How the data were processed

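Each library was an ATAC-seq peak list in narrowPeak format on GRCm38. Per the labels and the study's methods, the authors trimmed reads with Trim Galore 0.6.7, aligned them with Bowtie2 2.5.1 and called peaks per library with MACS2 2.2.7.1; the calling options, treatment of duplicates and any transposase shift are not given in the sources used here. The deposited columns hold fold enrichment at the summit over the library's own local background (a ratio), −log10 p and −log10 q of the peak as the authors' caller gave them, and an integer score that equals 10 times −log10 q rounded down. Read depth is unknown and was estimated only relatively, from the most frequent background value divided by the smallest peak width. Fold enrichment is comparable only within a list, so it was turned into a within-list rank and then a normal score.

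Peaks off the main chromosomes (739 of 1006065) were left out. Regions were assigned with GENCODE vM21 to promoters (within 1 kb of the start of any annotated transcript, so that internal starts count), exons, introns or intergenic sequence, and motifs were searched within 100 bp of the highest summit. Scores of regions shared by all 6 lists were compared with limma 3.58.1 in R 4.3.3 (2 groups, no covariate, moderated test, Benjamini-Hochberg adjustment over 85498 regions, threshold 0.05), tested beforehand on simulated data. Library measures were compared with an exact two-sided permutation test. Other steps used Python 3.11.15, numpy 2.4.6, pandas 2.3.3 and scipy 1.17.1. Named regions were the 10 gained and 10 lost with the highest mean percentile, the 10 largest rises and falls past the threshold with groups that did not overlap, the 8 of each kind at promoters of protein-coding genes, promoters of Rab5a, Rab5b and Rab5c, the 6 genes with most gained and most lost regions, and up to 2 regions of each kind per gene list. The regions next to the threshold were named outside that rule, and some regions it names are not reported here. The members, the 25 gene lists and the 21 motifs were chosen with earlier results of these data known, and the X-box and the comparisons within GC bins were added after seeing the data. The alternatives were equal list lengths, stricter q-values, narrower or less merged peaks, other rank measures, a correction for GC content and width, a replicate block and leaving out each library.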

Additional observations from a re-analysis of the deposited data

How the results depend on the processing

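The 1359 higher and 1175 lower regions depended on the fit. Leaving out any single library gave 0 and 0, as did the replicate block (17742 regions at an unadjusted p under 0.05 by limma, smallest adjusted p 0.0505) and the replicate block with GC and width correction (0 and 0, with 16632 and 0.074). The correction for GC content and width alone gave 790 and 716, the rank of −log10 p 798 and 613, a mean percentile of 25 or more 704 and 592, a trended robust variance 2250 and 2103, and log2 summit pileup 3859 and 3639. The cause of these differences was not tested. The labels do not tie a replicate number to a pregnancy, and deviations of same-numbered libraries correlated at 0.0176, 0.0224 and 0.0158, so the numbers were not taken to pair the libraries. The 6 other pairs lay between −0.0171 and −5.4e-05, and each library correlated best with its own number, a hint from the data and not from the design. Gained and lost regions numbered 15669 and 13618 when 2 of 3 libraries sufficed, and 7246 to 10308 and 5502 to 8769 when 1 library was left out. Lists of equal length gave 5280 and 5095. The median effect of regions with the RFX core less that of the rest was 0.16 with GC and width correction with or without the block, by rank of −log10 p and at a mean percentile of 25 or more, 0.14 over regions in all 12 libraries and 0.12 on log2 pileup. For the AP-1 site it was −0.06 in units of log2 pileup, against −0.15 in score units. Without PFF replicate 3 lost regions outnumbered gained ones. Assigned to the nearest start site, 3 of 50 gene list shares left the 95% Wilson interval of their first value: voltage-gated channels gained 2.46%, heat shock chaperones gained 0.633% and glutamate receptors and scaffolds lost 2.16%. These intervals are wide for small lists, and the larger of gained and lost turned for several: heat shock chaperones had 1 and 4 in place of 2 and 0, the autophagy machinery 8 and 5 in place of 5 and 6, genes of RNA decay and oligonucleotide action 5 and 4 in place of 3 and 4, and immediate early genes 7 and 6 in place of 1 and 2. TGF-beta and Smad genes had 11 and 7 in place of 7 and 8, and heparan sulfate synthesis genes 6 and 7 in place of 14 and 10. The LRRK2 list had 4 and 4 in place of 2 and 5, and unfolded protein genes 4 and 4 in place of 2 and 1. Projection neuron identity genes had 14 and 14 in place of 20 and 11, and interneuron identity genes 6 and 6 in place of 8 and 5.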
